A study of Mus musculus with 6 samples.

Results

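The genes described here encode the subunits of the receptors for glutamate, GABA and glycine, the transmitters of fast excitation and inhibition in the spinal cord. They were chosen by symbol, as all genes of the count tables whose mouse symbol starts with Gria, Grik, Grin or Grm before a digit, Grid, Gabra, Gabrb, Gabrg, Gabrd, Gabbr or Glra, or is Glrb. The rule took 47 of 43432 gene identifiers, and 46 of the 47 are receptor subunits. The remaining symbol, Grid2ip, encodes a scaffold that binds a delta receptor and was counted apart. The antisense gene Grin1os was left out by the rule and had no count in any library.

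The tissue was spinal cord from C57BL/6 mice of wildtype genotype. It came from mice 4 h after a contusion of one side of the cord at C5, the cervical level, set to 50 kdyn (SCI, n = 3 mice), and from mice that had the laminectomy alone, in which bone over the cord is taken away (sham, n = 3 mice). The age of the mice and the collection time of the sham mice were not used here. Libraries of the QuantSeq Forward type count reads near the 3′ end of polyadenylated RNA, so a count does not scale with transcript length and levels of different genes were compared without a length correction.

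Glutamate opens the AMPA, kainate and NMDA receptors, which are cation channels built from the Gria, Grik and Grin gene products, and acts through G proteins on the metabotropic receptors of the Grm genes. GABA opens the chloride channels of the Gabr genes and, through Gabbr1 and Gabbr2, a G protein-coupled receptor. Glycine opens a further chloride channel made of Glra and Glrb subunits, and this channel carries much of the inhibition in the spinal cord and brainstem. Neurons are the main source of most of these transcripts, and glial cells also make some of them.

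Total counts were 5364263 to 8229961 in the SCI libraries and 3407176 to 11543633 in the sham libraries. Marker lists show how the libraries differed in transcripts known from given cell types or organs. A list of 24 liver genes held 9.23 to 9.72% of counts in the SCI libraries, against 9.77%, 13.6% and 7.33% in sham libraries 1, 2 and 3. Whether these liver transcripts came from the cord or from outside it is not known and was not tested. The summed level of 18 neuron markers was 7692, 7635 and 7357 CPM (counts relative to the TMM-scaled library size) in SCI libraries 1 to 3, against 8414, 6457 and 9422 CPM in sham libraries 1 to 3. Sham 2 was thus lowest in neuron markers and highest in liver genes, and sham 3 was the reverse. Erythroid markers, 8 genes of red blood cells, summed to 2997, 1590 and 4286 CPM in SCI, against 846, 776 and 618 CPM in sham, and 5 of the 6 tested were higher in SCI (Hba-a1, Hba-a2, Hbb-bs, Hbb-bt and Alas2). The sum of 10 microglia markers overlapped, at 404 ± 48.8 CPM in SCI and 394 ± 42.7 CPM in sham, and 1 of them, P2ry12, was lower in SCI. The part of these markers in the receptor values was not tested. Every one of the neuron, astrocyte and oligodendrocyte markers had counts. In whole tissue, fewer cells of a type and less RNA per cell cannot be told apart.

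None of the receptor genes passed the test for a difference between SCI and sham. Of the 46 genes, 38 had enough counts to be tested with edgeR's quasi-likelihood test, and 0 were higher and 0 lower (threshold 0.05 after Benjamini-Hochberg adjustment). Among the 13560 genes in the fit, 0.885% were called higher and 0.0442% lower, 0.929% in all. The smallest adjusted p among the receptors was 0.464 (Grin2c). Without adjustment, 2 of the 38 had an edgeR p under 0.05, beside 7.38% of all genes tested. These were Grin2c with a positive log2 fold change, as in 4.27% of all genes, and Gabra2 with a negative one, as in 3.11%, and DESeq2's Wald test also made 0 calls among them. The count was 0 as well without each of the 6 libraries.

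The intervals of the differences say how large a change these libraries leave possible. For the 10 most abundant receptor genes, log2 fold changes of SCI over sham lay between -0.16 and 0.18, and the 95% intervals all lay between -0.64 and 0.65, that is between 0.641-fold and 1.56-fold. For 28 of the 38 genes the interval lay within a 2-fold change in either direction, as it did for 71.0% of all genes tested. The other 10 had intervals that reach beyond 2-fold, so for them these libraries do not bound a change of that size. Negative values were found for 27 of the 38, against 50.3% of all genes tested, with a median log2 fold change of -0.10 beside -0.0025 for all genes.

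**Figure D1:**
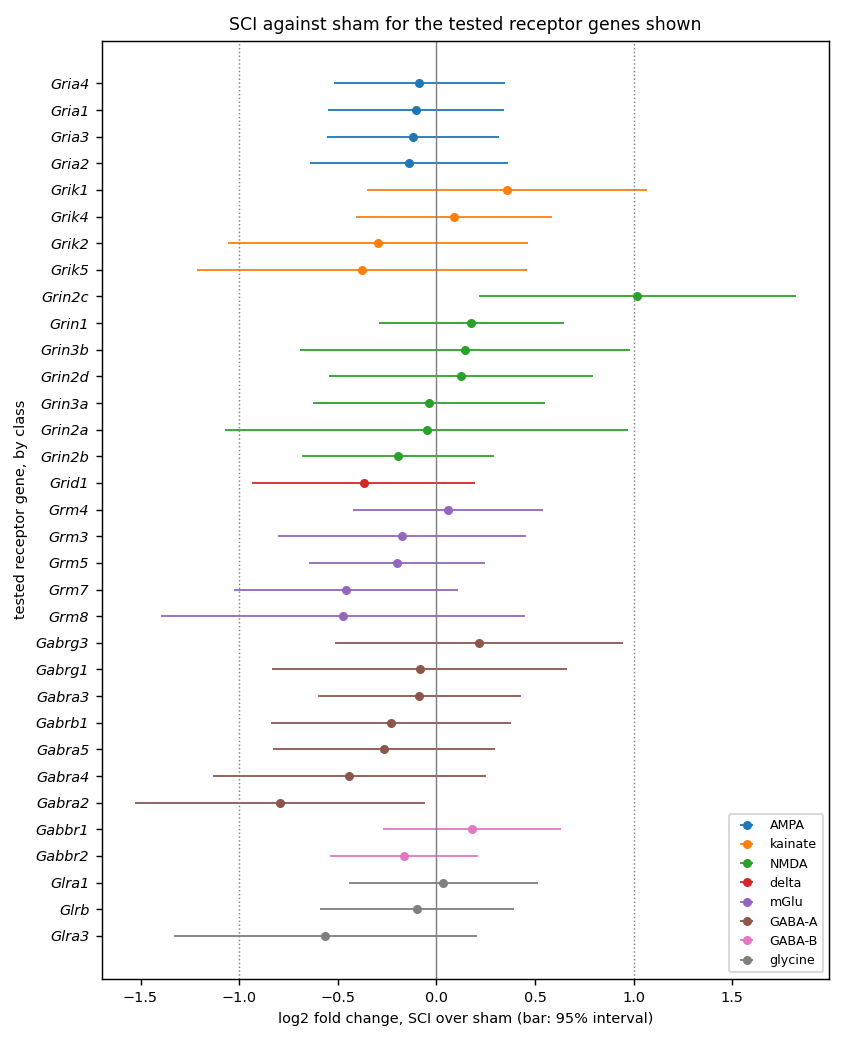
Log2 fold change of SCI over sham for 33 of the 38 tested receptor genes, grouped and coloured by class, with the 95% interval as a bar and dotted lines at a 2-fold change. Grin2c (1.02) and Gabra2 (-0.79) are the genes whose intervals exclude 0, and neither was called after adjustment.

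That median depended on which sham library was in the fit. Without sham 2 it was -0.32, with 36 of 39 tested receptor genes negative, and without sham 3 it was 0.05, with 17 of 39 negative. Sham 3 held the highest value of 27 of the 38 genes and sham 2 the lowest of 20, so the range of the sham group enclosed most SCI values. Over all genes tested, sham 3 was highest in 23.1% and sham 2 lowest in 23.3%. Scaling the libraries by the neuron markers in place of TMM gave a median of -0.0079 over the 38 receptor genes, with 21 negative. Under that scaling the median of all genes was 0.05.

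**Figure D2:**
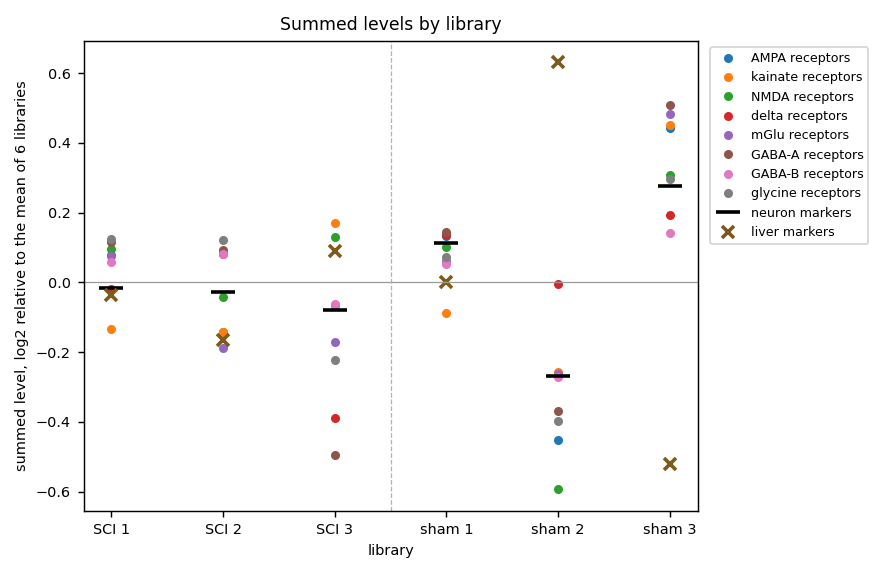
Summed level of each receptor class in each library, as log2 relative to its mean over the 6 libraries, with the neuron marker sum (black bars) and the liver marker sum (crosses). In sham 2 all 8 classes lie below their mean and the liver sum lies at 0.63, while in sham 3 all 8 classes lie above and the liver sum lies at -0.52.

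The receptor genes together held 1523, 1454 and 1286 CPM in SCI libraries 1 to 3, against 1523, 1103 and 1819 CPM in sham libraries 1 to 3. The groups overlapped in this sum and in the sum of each of the 8 classes. Relative to the neuron markers the receptor sum was 0.188 ± 0.012 in SCI and 0.182 ± 0.011 in sham (SD, n = 3 each), a log2 difference of 0.048. With medians of log2 levels in place of sums that difference was -0.40, so its direction depended on the summary. No test was run on sums over the class members.

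**Figure D3:**
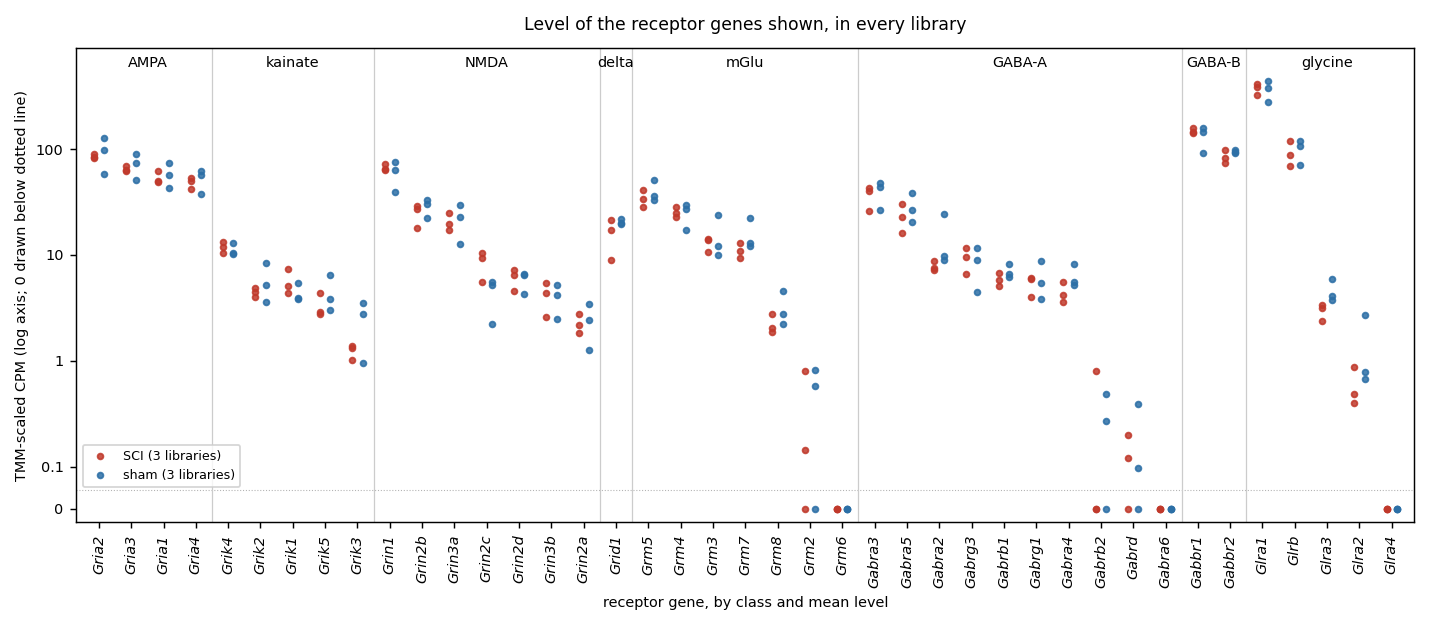
Level of 41 of the 46 receptor genes in TMM-scaled CPM on a log axis, by class and, within a class, by mean level, with the 3 SCI libraries in red left of the 3 sham libraries in blue. Glra1 stands above every other gene in every library, and Gabra6, Grm6 and Glra4 have no count in any library.

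Glycine receptors held the largest share of the receptor counts of any class, 32.9 ± 1.88% in SCI and 31.8 ± 0.390% in sham (SD, n = 3 each). Glra1, the α1 subunit of the adult glycine receptor (ENSMUSG00000000263, chromosome 11, 55514238 to 55608198, GRCm38), had 413, 382 and 325 CPM in SCI libraries 1 to 3, against 376, 276 and 441 CPM in sham libraries 1 to 3. It was the most abundant receptor gene in each library, and its groups overlapped. Its log2 fold change was 0.035 ± 0.22 (SE), with a 95% interval of 0.735-fold to 1.43-fold. Glrb, the β subunit that ties the receptor to the scaffold gephyrin (chromosome 3, 80843599 to 80913660), had 88.7, 118 and 69.6 CPM in SCI, against 107, 71.3 and 119.6 CPM in sham.

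Of the other glycine receptor α subunits, Glra3, which is known from inhibition in the dorsal horn, had 3.38, 3.18 and 2.38 CPM in SCI libraries, against 4.07, 3.76 and 5.96 CPM in sham libraries. Each SCI value lay below each sham value. The log2 fold change of -0.56 ± 0.36 was not called (adjusted p = 0.824). Glra2, the α2 subunit of the fetal receptor, had too few counts to be tested, with 12 counts over the SCI libraries and 23 over the sham libraries. Relative to total counts this gives a ratio of 0.585 (95% counting interval 0.265 to 1.23). Among the α genes Glra1 took 99.1 ± 0.102% of counts in SCI and 98.4 ± 0.327% in sham.

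GABA-B receptors work as a pair of one GABA-binding subunit, Gabbr1, and one G protein-coupling subunit, Gabbr2. Gabbr1 (chromosome 17, 37045966 to 37075067) had 141, 159 and 146 CPM in SCI libraries, against 145, 92.0 and 158 CPM in sham libraries. Gabbr2 averaged 84.6 ± 12.3 CPM in SCI and 94.9 ± 2.77 CPM in sham (SD, n = 3 each). The ratio of Gabbr1 to Gabbr2 was 1.79 ± 0.302 in SCI and 1.39 ± 0.395 in sham, with groups that overlapped (exact two-sided permutation test, p = 0.3, where 3 against 3 cannot go below 0.1, and adjusted p = 0.6 over 6 gene pairs). Sham 2, at 0.940, was the library in which Gabbr2 exceeded Gabbr1.

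The GABA-A class had 13 genes, of which 10 were tested. Of these, 9 had a negative log2 fold change, beside 50.3% of all genes tested, with values between -0.79 and 0.22 over the class. The class median was -0.17, and -0.0069 without SCI 3. Genes of a class can move together within a library, so these signs are not separate observations. The summed level was 199, 196 and 130.4 CPM in SCI libraries, against 204, 143 and 262 CPM in sham libraries. SCI 3 was the lowest library of the 6 and sham 3 the highest. Gabra3, the α3 subunit, had 43.3, 40.4 and 26.0 CPM in SCI, against 47.3, 26.7 and 43.9 CPM in sham.

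Of the counts of all α subunits, Gabra3 took 40.7 ± 2.51% in SCI and 36.7 ± 5.53% in sham (SD, n = 3 each). Gabra5, the α5 subunit, took 25.6 ± 3.06% in SCI and 26.4 ± 1.89% in sham. Gabra2 took 8.73, 7.13 and 11.1% in SCI libraries 1 to 3, against 8.78, 11.8 and 17.5% in sham libraries 1 to 3. Gabra4, of receptors outside synapses, took 5.04 ± 0.917% in SCI and 5.93 ± 0.971% in sham. The order of these 4 genes by mean share was alike in both groups, and each share overlapped between them.

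Gabra2, the α2 subunit found in dorsal horn and on motor neurons (ENSMUSG00000000560, chromosome 5, 70957597 to 71095849), had 8.70, 7.51 and 7.14 CPM in SCI, against 9.72, 8.86 and 24.1 CPM in sham. All SCI values lay below all sham values, and sham 3 stood far above the other two sham libraries. The log2 fold change was -0.79 ± 0.34 (SE, edgeR unadjusted p = 0.0363, adjusted p = 0.614). Without sham 3 it was -0.25 (adjusted p = 0.860). The motor neuron markers, 10 genes, summed to 197, 218 and 191 CPM in SCI, against 253, 223 and 269.8 CPM in sham, so that list also lay lower in every SCI library, and its part in the Gabra2 values was not tested.

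Gabra4 and Gabrb1, neighbours on chromosome 5, overlap over 196 bases on opposite strands, and the strand setting of the counting was not stated, so their counts may share reads.

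Gabra6, the α6 subunit of cerebellar granule cells, had no count in any library. The same held for Grm6, a receptor of retinal bipolar cells, and for Glra4. A count of 0 allows up to 0.149 CPM over the SCI libraries and 0.133 CPM over the sham libraries. Gabrd, the δ subunit of receptors outside synapses, had 2 counts in SCI and 4 in sham, Gabrb2 had 4 in SCI and 6 in sham, and Grm2 had 5 in SCI and 9 in sham. For each of these 3 genes the 95% counting interval of the ratio includes 1, and no fold change was fitted.

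AMPA receptors held 17.8 ± 1.57% of receptor counts in SCI and 18.4 ± 1.12% in sham. Their 4 genes had log2 fold changes between -0.14 and -0.09. Gria2, the subunit that keeps the channel impermeable to calcium (ENSMUSG00000033981, chromosome 3, 80681450 to 80802835), had 90.4, 81.9 and 84.1 CPM in SCI, against 98.1, 58.4 and 128 CPM in sham. All SCI values lay inside the sham range. Gria3 had 69.0, 62.2 and 63.2 CPM in SCI, against 73.3, 50.7 and 88.9 CPM in sham.

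The makeup of the AMPA class overlapped between groups for each of its 4 genes. Gria1, Gria2, Gria3 and Gria4 took 21.1, 33.9, 25.7 and 19.2% of AMPA counts in SCI, and 21.2, 33.8, 25.9 and 19.1% in sham, with SDs of 0.667 to 1.16 points in SCI and 0.783 to 2.75 points in sham. The ratio of Gria1 to Gria2, which is set by the subunits without and with that calcium block, was 0.624 ± 0.048 in SCI and 0.631 ± 0.084 in sham (exact two-sided permutation test, p = 1.0, n = 3 each).

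NMDA receptors held 9.41 ± 1.23% of receptor counts in SCI and 8.41 ± 0.684% in sham. Grin1, the subunit that every NMDA receptor needs, had 62.9, 64.4 and 72.4 CPM in SCI, against 63.8, 38.9 and 75.1 CPM in sham. Grin2b, the glutamate-binding subunit that is most abundant among the Grin2 genes, had 29.3, 17.9 and 27.2 CPM in SCI, against 30.1, 22.5 and 33.3 CPM in sham. The groups overlapped for both genes. Grin2a, which gains on Grin2b during forebrain development, stayed at 2.25 ± 0.468 CPM in SCI and 2.37 ± 1.08 CPM in sham, and its ratio to Grin2b was 0.099 ± 0.048 in SCI and 0.081 ± 0.030 in sham (exact two-sided permutation test, p = 0.6, n = 3 each).

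Grin2c, the GluN2C subunit that is known from cerebellar granule cells and from astrocytes (ENSMUSG00000020734, chromosome 11, 115249169 to 115267243), was the receptor gene with the smallest p. It had 5.56, 9.38 and 10.5 CPM in SCI, against 5.51, 2.21 and 5.15 CPM in sham. Each SCI value lay above each sham value, but SCI 1 and sham 1 were apart by less than 0.1 CPM. The log2 fold change was 1.02 ± 0.38 (SE, edgeR unadjusted p = 0.0166, adjusted p = 0.464), from 164 counts in SCI and 84 in sham. It was 0.63 without sham 2 and 0.84 without SCI 3, and the adjusted p lay between 0.165 and 0.902 over the 16 alternatives.

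The share of Grin2c among the Grin2 genes was 12.7, 25.7 and 23.7% in SCI, against 12.1, 7.32 and 10.9% in sham, and that of Grin2b 58.9 ± 9.03% in SCI and 70.3 ± 4.26% in sham (SD, n = 3 each). The share is free of library scaling, and SCI 1 and sham 1 again lay next to each other. Astrocyte markers, 12 genes, summed to 4784, 5017 and 5029 CPM in SCI, against 4729, 3664 and 5316 CPM in sham. Sham 2 was lowest in both the markers and Grin2c. Sham 3 was highest in the markers, but its Grin2c level of 5.15 CPM lay below every SCI library. The part of the markers in the Grin2c values was not tested.

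Groups that did not overlap were found for 3 of the 38 tested genes, or 7.89%, beside 13.7% of all genes tested. Grin2c lay above sham, as did 7.73% of all genes, and Gabra2 and Glra3 lay below, as did 5.94%. The promoters of Grin2c and Gabra2 are shown because these genes lay farthest from sham in each direction, and that of Gabra6 as the related gene with no count. Each runs 5′ to 3′ on the gene's strand from 250 bases before to 50 after the start (RefSeq, GRCm38.p6), with CG dinucleotides in capitals. Grin2c is at chr11:115267194-115267493 (minus strand), Gabra2 at chr5:71095800-71096099 (minus) and Gabra6 at chr11:42321023-42321322 (minus).
Grin2c: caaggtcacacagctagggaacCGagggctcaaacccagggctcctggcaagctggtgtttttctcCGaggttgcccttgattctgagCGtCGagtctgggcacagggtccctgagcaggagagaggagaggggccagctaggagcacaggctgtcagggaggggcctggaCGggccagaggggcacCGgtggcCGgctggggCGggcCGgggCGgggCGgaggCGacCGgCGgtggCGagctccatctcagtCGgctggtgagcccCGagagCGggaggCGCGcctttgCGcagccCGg
Gabra2: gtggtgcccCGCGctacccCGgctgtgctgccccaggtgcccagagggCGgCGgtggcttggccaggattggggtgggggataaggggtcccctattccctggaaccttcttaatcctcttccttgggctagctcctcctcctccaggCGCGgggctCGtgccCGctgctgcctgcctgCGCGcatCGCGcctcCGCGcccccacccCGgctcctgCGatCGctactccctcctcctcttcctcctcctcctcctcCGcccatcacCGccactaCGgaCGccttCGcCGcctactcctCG
Gabra6: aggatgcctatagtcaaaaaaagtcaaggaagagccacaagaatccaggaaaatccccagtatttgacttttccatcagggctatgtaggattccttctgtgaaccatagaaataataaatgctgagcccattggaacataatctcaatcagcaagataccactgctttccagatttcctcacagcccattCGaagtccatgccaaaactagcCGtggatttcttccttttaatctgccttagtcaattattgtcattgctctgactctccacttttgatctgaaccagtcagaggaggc

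These windows hold 22, 25 and 2 CG dinucleotides. Of the 46 receptor genes, 30 had a window, 37 windows in all, with a median of 12 CG dinucleotides beside 7 in all 32851 windows of the table. Windows of receptor genes with a mean of at least 1 CPM had a median of 13 (29 windows), and those of genes under 1 CPM a median of 9 (8 windows). Motifs of the transcription factor families that respond to injury and activity were searched on both strands. The AP-1 motif TGANTCA was in 2 of the 37 windows, those of Grin3b and Grm8, or 5.41%, beside 7.81% of all windows. The CRE motif TGACGTCA, bound by CREB, was in 0 of the 37 and 1.79% of all windows, and the EGR motif GCGTGGGCG in 0 and 0.612%. Each motif was searched by itself, and no match says only that these letters were not in these windows.

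**Figure D4:**
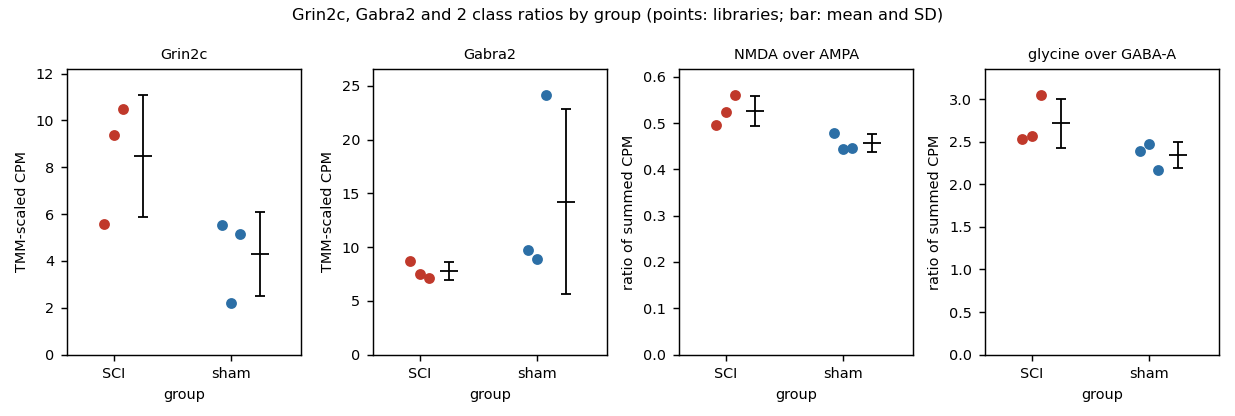
Values by library (points, SCI in red left of sham in blue) with the mean and SD (n = 3 each) for Grin2c and Gabra2 in TMM-scaled CPM and for the ratios of summed NMDA to AMPA and of summed glycine to GABA-A receptor levels. SCI 1 and sham 1 nearly touch in Grin2c, and sham 3 at 24.1 CPM stands apart in Gabra2.

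Kainate receptors were the least abundant of the glutamate channels, at 26.4 ± 3.38 CPM in SCI and 28.2 ± 7.60 CPM in sham for 5 genes. Grik4, a high-affinity subunit that needs a partner to form channels, led with 10.4, 11.8 and 13.3 CPM in SCI, against 10.4, 10.3 and 13.01 CPM in sham. Grik2, a subunit that forms channels by itself, had 4.84, 4.48 and 3.96 CPM in SCI, against 5.25, 3.56 and 8.40 CPM in sham. Groups overlapped for all 5 genes in CPM. As a share of kainate counts, Grik1 was at 20.7, 17.8 and 24.2% in SCI libraries, against 15.5, 17.1 and 14.7% in sham libraries. The groups of this share did not overlap, but SCI 2 and sham 2 lay close. It came from 109 counts in SCI and 90 in sham, and was not tested. In level, groups were apart for 13.7% of all genes tested. The log2 fold change of Grik1 was 0.36 ± 0.33 (adjusted p = 0.901). Grik3 had too few counts to be tested, 25 in SCI and 44 in sham, or 0.637 relative to total counts (95% counting interval 0.374 to 1.06).

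Delta receptors bind cerebellins rather than glutamate. Grid1 had 17.2, 21.4 and 8.92 CPM in SCI, against 20.2, 22.0 and 19.5 CPM in sham. SCI 1 and SCI 3 lay below all sham values, and SCI 2 lay within the sham range. The log2 fold change was -0.37 ± 0.26, and -0.11 without SCI 3. Grid2ip had 16 counts in SCI and 8 in sham, or 2.24 relative to total counts (95% counting interval 0.906 to 6.06).

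Of the 8 metabotropic glutamate receptor genes, 6 were tested and 5 had a negative log2 fold change, beside 50.3% of all genes tested. The sum of the class was 116, 96.9 and 97.9 CPM in SCI libraries, against 115, 92.0 and 154 CPM in sham libraries. Grm5, a receptor coupled to calcium release, was the most abundant, with 40.6, 33.8 and 28.5 CPM in SCI, against 36.2, 33.0 and 50.7 CPM in sham. Grm4, a presynaptic receptor of the group that lowers cyclic AMP, had 28.5, 24.8 and 23.0 CPM in SCI, against 29.8, 17.1 and 27.1 CPM in sham. Grm7, of the same group, had 13.1, 9.38 and 10.9 CPM in SCI, against 12.9, 12.2 and 22.2 CPM in sham. Groups overlapped for all 3 genes, and the log2 fold change of Grm7 was -0.46 ± 0.27 (edgeR adjusted p = 0.781) and -0.17 without sham 3. Grm3, known from astrocytes as well as neurons, averaged 12.9 ± 1.92 CPM in SCI and 15.2 ± 7.32 CPM in sham.

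**Figure D5:**
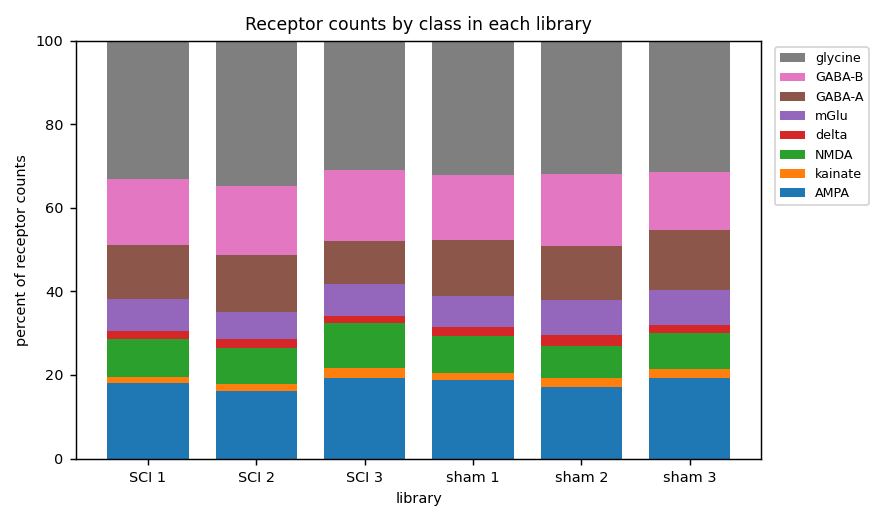
Percent of all receptor counts held by each of the 8 classes in each library, SCI libraries left of sham libraries. Glycine receptors hold the largest share in every library, and GABA-A receptors hold between 10.1% (SCI 3) and 14.4% (sham 3).

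Ratios between classes within a library do not depend on how libraries are scaled. Summed NMDA over summed AMPA receptor levels was 0.496, 0.525 and 0.560 in SCI libraries 1 to 3, against 0.479, 0.444 and 0.446 in sham libraries 1 to 3. Glycine over GABA-A receptor levels was 2.54, 2.57 and 3.05 in SCI, against 2.40, 2.47 and 2.17 in sham. Neither pair of groups overlapped, though SCI 1 at 2.54 and sham 2 at 2.47 lay close. SCI 3, at 3.05, had the lowest GABA-A sum (130.4 CPM). Groups were also apart for 13.7% of all genes tested, and an exact two-sided permutation p of 3 against 3 cannot go below 0.1. The ratio of the inhibitory channels (GABA-A and glycine) to the ionotropic glutamate receptors overlapped, at 1.47 ± 0.248 in SCI and 1.46 ± 0.046 in sham. Metabotropic over ionotropic glutamate receptor levels also overlapped, at 0.236 ± 0.014 in SCI and 0.262 ± 0.021 in sham. GABA-A over AMPA receptor levels overlapped too, at 0.696 ± 0.157 in SCI and 0.736 ± 0.019 in sham, with SCI 3 lowest at 0.526. With medians of log2 levels in place of sums, the SCI minus sham difference of NMDA to AMPA was 0.71 on the log2 scale, against 0.21 with sums. No test was run on these class ratios.

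Of 98 partner genes with a match in the tables, from lists of auxiliary subunits, scaffolds, transporters and enzymes of these receptors, 90 were tested, and 0 were higher and 0 lower by edgeR. Their median log2 fold change was 0.05. Among AMPA receptor partners, Nsf, an ATPase that binds AMPA receptors, averaged 242 ± 8.62 CPM in SCI and 318 ± 86.7 CPM in sham, and the auxiliary subunit Cacng2 (stargazin) 141 ± 48.2 CPM in SCI and 164 ± 2.90 CPM in sham. Nrxn3, a presynaptic adhesion protein, averaged 175 ± 22.7 CPM in SCI and 181 ± 51.0 CPM in sham. Camk2b and Dlgap1, of the postsynaptic density, averaged 82.3 ± 6.32 and 66.6 ± 6.35 CPM in SCI and 79.5 ± 22.2 and 73.7 ± 22.2 CPM in sham. None of these genes separated the groups.

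For inhibitory receptors, Gabarapl1, a relative of the GABA-A receptor trafficking protein, averaged 517 ± 32.0 CPM in SCI and 458 ± 11.5 CPM in sham, and Slc12a2, a chloride importer, 132 ± 5.82 CPM in SCI and 123 ± 26.6 CPM in sham. Each SCI value of Gabarapl1 lay above each sham value, and its log2 fold change was 0.17 ± 0.20 (adjusted p = 0.926). Of transmitter clearance, the glial glutamate transporter Slc1a2 averaged 1160.5 ± 76.9 CPM in SCI and 1247 ± 320 CPM in sham, and Glul, which turns glutamate into glutamine in astrocytes, 1023 ± 21.5 CPM in SCI and 873 ± 61.7 CPM in sham (log2 fold change 0.23 ± 0.22, adjusted p = 0.910). The groups of Glul did not overlap either, and those of Slc1a2 did. Arc, an activity-induced regulator of AMPA receptor uptake, chosen after its values were seen, had 14.5, 11.4 and 8.13 CPM in SCI, against 5.91, 4.33 and 5.15 CPM in sham. All SCI values lay above all sham values. Its log2 fold change was 1.17 ± 0.29 (adjusted p = 0.102), and it was called with no filter on low counts and with the liver level as a covariate (adjusted p = 0.0165 and 0.0441). Over all genes tested, every SCI value lay above every sham value in 7.73%, and the share among the 90 tested partner genes is not given here.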

How the data were processed

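RNA of spinal cord tissue was sequenced as single-end reads of 50 bases from 1 µg of total RNA per sample, per the labels' protocols and the design text. The authors deposited whole-number read counts per Ensembl gene, 1 table per library and not normalized. Reads were aligned with STAR 2.7.2b to mm10 with Ensembl release 96 of GRCm38, per the design text, and DESeq2 1.24.0 is named in the submitters' processing notes. For the counting tool, its strand setting and molecular identifiers, the sources used here give nothing. A 3′ end count depends on which transcript ends the annotation holds, which was not tested. Symbols matched 42462 of 43432 identifiers, and those without held 0.0884% of counts. Positions are from GENCODE M21 (GRCm38).

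Genes passing edgeR's filterByExpr (minimum count 10) numbered 13560. The 6 libraries were scaled by TMM and tested for SCI over sham with the robust quasi-likelihood F test of edgeR 4.0.16 in R 4.3.3, with Benjamini-Hochberg adjustment over all genes tested and a threshold of 0.05. The SE was taken as the size of the log2 fold change over the root of F, and 95% intervals use its t distribution. CPM values are counts over the TMM-scaled library size. Counting intervals of ratios are exact binomial, and a count of 3 stands for the limit that a count of 0 allows. They pool the counts of a group relative to total counts, without TMM scaling. They cover counting error only and leave out the spread between mice, so they are too narrow for a comparison of the groups. For Glra1 such a ratio was 1.17 (1.14 to 1.21), where the fit gave 1.02-fold (0.735 to 1.43). Reads are also not independent molecules. A count of 3 was 0.260 to 0.880 CPM in single libraries.

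The design text gives 3 mice in each group, and no pair of libraries in a group was alike within sampling noise (chi-square per degree of freedom 6.97 to 38.0). The procedure was tested on simulated data. The members, gene lists and named genes were chosen with earlier results of these data known. Values per library are given for the 2 most abundant genes of each class (1 for classes of 2), the 6 with the smallest p and any called gene. Of partner genes, called ones and the 2 most abundant of each list are named. Some genes this rule takes, and some members in the figures, are not reported here, but they stay in counts, sums and the fit. Alternatives were other scalings (with limma 3.58.1 for voom and DESeq2 1.42.0), filters, tests, a liver covariate, the replicate number as a block and leaving out each library.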

Additional observations from a re-analysis of the deposited data

How the results depend on the processing

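No receptor gene was called under any of the 16 alternatives, and none of the 80 to 96 tested partner genes except Arc, called with no filter on low counts and with the liver covariate (1 gene higher in each). Over all genes, the number called lower, 6, was 11 by DESeq2's Wald test, 22 with the liver covariate, 42 with no filter and 2 when scaled by neuron markers, and 1 to 14 with a library left out. The number called higher, 120, was 204 with the liver covariate, 182 with no filter and 79 when scaled by neuron markers, and 62 to 132 with a library left out. Whether the replicate numbers pair the libraries was not settled. Deviations from the group means correlated at -0.08, -0.07 and -0.17 between same-numbered SCI and sham libraries. Between libraries of other numbers the correlations ran from -0.06 to 0.12. Deviations within so small a group are bound to balance, so these correlations cannot decide on a shared batch. With the replicate number as a block, 1 gene was called lower over all genes and 0 receptor genes were called.

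Of 17 named receptor genes, 7 kept the sign of their log2 fold change in every alternative. Scaled by neuron markers, Gabra3 and Glrb turned to 0.0084 and 0.0042. With a library left out, log2 fold changes ran from -0.14 to 0.19 for Glra1, -0.32 to 0.057 for Glrb, -0.034 to 0.33 for Gabbr1 and -0.32 to 0.094 for Gabra3. They ran from -0.41 to 0.13 for Gria2, -0.33 to 0.067 for Gria3, -0.069 to 0.38 for Grin1, -0.58 to 0.026 for Grik2, -0.0064 to 0.19 for Grik4 and -0.17 to 0.22 for Grm4. The median of the kainate class ran from -0.47 to 0.026. Taking medians of log2 levels of tested members in place of sums, the SCI minus sham difference of the log2 ratio was 0.71 for NMDA to AMPA (0.21 with sums), -0.28 for metabotropic to ionotropic glutamate receptors (-0.15 with sums) and -0.40 for all receptors to neuron markers, which turned from 0.048 with sums. The causes were not tested. The 8 untested genes had too few counts for the filter, 3 of them with no count in any library. The smallest library, sham 3, held 3407176 counts.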
